A study of Mus musculus with 3 samples.

Results

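Genes of the major histocompatibility complex (MHC) and of antigen processing were followed in Melan-a NRAS61K cells, which derive from immortalized melanocytes of the mouse and carry the oncogene NRAS61K. The genes were selected by symbol, for a topic picked with earlier results of these data known. They comprise every gene whose symbol starts with H2-, the prefix of the mouse MHC, and 17 listed genes of peptide production, peptide loading and MHC regulation. Of 45101 probe sets on the Affymetrix array, 77 were annotated to exactly 1 of these genes. They stand for 39 of the 18194 genes on the array, 23 of them H2 genes and 16 of them listed genes. The remaining listed gene, Psme2, was annotated together with another gene and is not among them. The same holds for some H2 genes, such as H2-Q7, H2-T23 and H2-DMb1.

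Cells had been treated with doxycycline at 1 µg/ml for 6, 14 or 28 days, and each time point had 1 array. The labels do not state which promoter doxycycline acts on, and no untreated cells were analysed here. The variation from culture to culture thus could not be measured. No p-value or SD over cultures is given, and each difference describes 2 arrays.

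Deposited values were read as log2 values, a base inferred from the values, and all folds assume it. The 3 arrays held the same values once sorted, so every difference is relative to the other genes of the array. Background was set per array from 116 probe sets of 70 genes of other tissues, at their 90th percentile, which was 22.84 (day 6), 22.66 (day 14) and 22.80 (day 28). Genes were described in a comparison if at least 1 of both arrays exceeded the background. A log2 difference of 1 or more in size was counted as 2-fold. The SD of differences between probe sets of one gene was 0.32 for day 28 against day 6. It describes the spread between probe sets on the same 2 arrays. Error that all probe sets of a gene share on an array is not covered, and neither are cultures. The 3' minus 5' difference of the Actb quality probe sets was 0.58, 0.76 and 0.75 in order of time, and its part in the results was not tested.

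The identity of the cells was checked against fixed markers. Of 10 melanocyte markers on the array, 7 exceeded the background at day 6, 8 did at day 14 and 7 at day 28. The list's median level was 23.39, 26.47 and 25.79 in order of time. Of the 7 markers described for day 28 against day 6, 4 were 2-fold higher and 0 lower, against 6.60% and 4.00% of all genes. The 4 were Dct at 18.4-fold, Mlana at 17.5-fold, Slc45a2 at 6.32-fold and Mitf at 4.38-fold. Sox10, Pmel and Tyrp1 differed by 0.87, -0.02 and -0.11. Tyr and Kit lay below the background on every array, and Oca2 did at days 6 and 28. Between days 14 and 6, 6 of 8 markers described were 2-fold higher and 0 lower, against 5.50% and 3.89% of all genes, with a median of 2.27. They were Dct at 40.6-fold, Mlana at 28.4-fold, Slc45a2 at 13.2-fold, Mitf at 5.40-fold, Tyrp1 at 4.28-fold and Oca2, for which no bound above 1 can be given. Between days 28 and 14, 0 of 8 markers described were 2-fold higher and 4 were lower, against 2.21% and 1.46% of all genes. Tyrp1 was 4.62-fold lower in this step. Dct, Mlana, Slc45a2 and Mitf thus moved with the antigen presentation genes between days 28 and 6 and between days 14 and 6. The list did not move with them between days 28 and 14. The part of these markers in the results was not tested. Of 15 leukocyte markers, 6, 5 and 5 exceeded the background at days 6, 14 and 28, and the list's median level stayed between 21.95 and 22.02. Ptprc, the pan-leukocyte surface phosphatase, lay below the background on every array, with 20.99, 20.80 and 21.42 in order of time. So did the B cell receptor gene Cd79a, the T cell receptor gene Cd3e and the myeloid integrin gene Itgam. The macrophage genes Cd68 (25.09, 23.98 and 25.99), Csf1r and Adgre1 lay above it on all arrays. Lyz2, the macrophage lysozyme gene, exceeded its day 6 level 6.70-fold at day 28. Of 8 endothelial markers, Cdh5 alone lay above the background, 18.7-fold higher at day 28 (27.93) than day 6 (23.70), and Pecam1 lay below it throughout. Of 9 fibroblast markers, 6, 4 and 6 lay above it, and 2 were 2-fold higher at day 28, Pdgfra at 3.06-fold and Dcn with a bound of 1.15-fold. Of 7 keratinocyte markers, 3 lay above it at each time and 0 were 2-fold higher. Lyz2, Cdh5 and Pdgfra moved with the results below, and their part in them was not tested.

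MHC class I molecules display peptides from inside the cell on its surface. Each consists of a heavy chain, in the mouse mainly H2-K1 or H2-D1, and the light chain B2m. Peptides are cut by the proteasome, whose catalytic subunits can be exchanged for the immunoproteasome subunits Psmb8, Psmb9 and Psmb10. The Tap1 and Tap2 pump then carries the peptides into the endoplasmic reticulum, where Tapbp, Calr and Pdia3 help to load them. Class II molecules instead present peptides from endosomes and are normally made by professional antigen-presenting cells. Interferons are well known to induce class I, Tap1 and immunoproteasome genes, and the Nlrc5 protein is a transcriptional activator of class I genes, as Ciita is of class II genes.

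Where antigen presentation genes differed 2-fold between days 28 and 6, they were higher at day 28. Of the 39 genes, 27 exceeded the background on at least 1 of both arrays. Of these, 10 were 2-fold higher at day 28 and 0 were 2-fold lower, while 6.60% of all 11630 genes described were higher and 4.00% lower. The other 17 genes split into 9 positive and 8 negative differences. The median log2 difference was 0.70 for the 27 genes and 0.01 for all genes described. Genes that lie above the background only at day 28 must be higher there, so the 20 genes above it on both arrays are given too. Among those, 4 were 2-fold higher, namely H2-K1, Cd74, H2-M3 and Tap1, and the median was 0.32. Under the same filter 4.84% of all 10763 genes were higher, 3.57% were lower and the median was 0.0021. Counted by probe set, 18 of 47 were 2-fold higher, against 5.90% of all probe sets with 1 gene, and 0 were lower, against 4.97%.

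**Figure D1:**
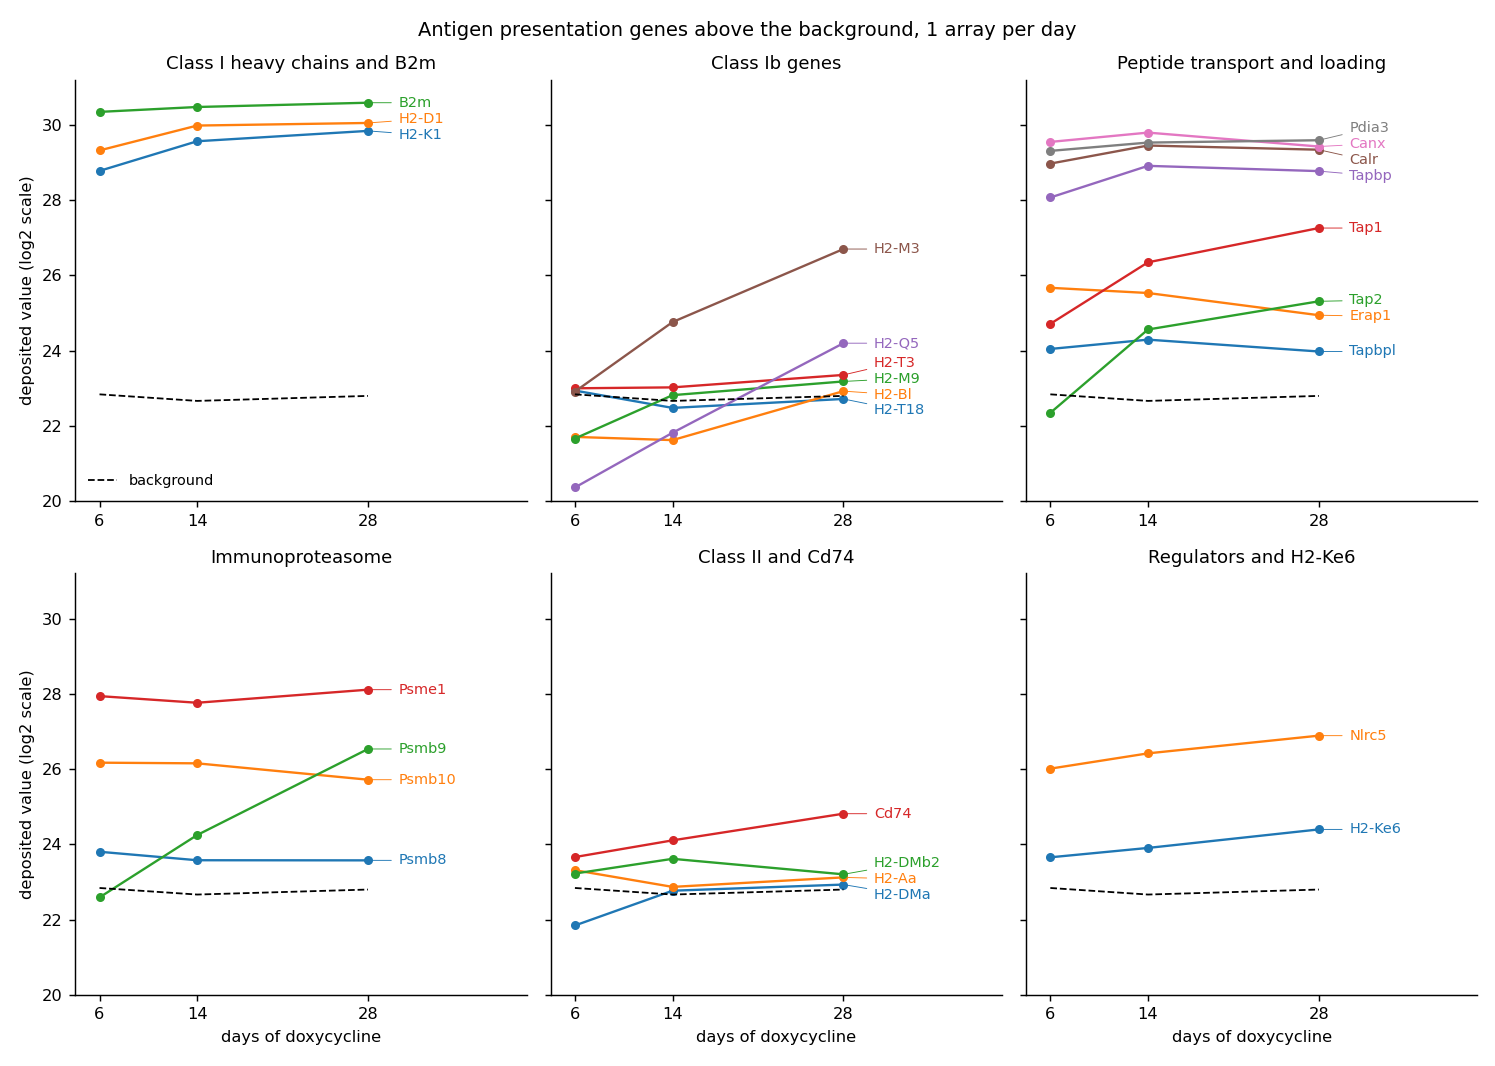
Deposited values (log2 scale) of the 27 genes above the background on at least 1 array, plotted against days of doxycycline in panels by role, with 1 array per day and the background as a dashed line. H2-M3, Psmb9, Tap1 and Tap2 are higher at each later day, while B2m, Canx, Calr and Pdia3 stay near the top of the scale and most class II genes near the background.

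The class I heavy chains were higher at day 28 on every probe set that lay above the background. H2-K1 was represented by 4 such probe sets. The brightest of them gave 28.78 at day 6, 29.57 at day 14 and 29.84 at day 28, giving a log2 difference of 1.06 for day 28 against day 6. The other 3 gave larger differences, up to 2.46, and the mean over all 4 was 1.80. H2-D1 had 9 probe sets, of which 7 lay above the background on all arrays. Its brightest one gave 29.32 at day 6, 29.98 at day 14 and 30.05 at day 28, giving a difference of 0.73, and the 7 differences ran from 0.73 to 1.74 with a mean of 1.24. In RNA of a whole culture, more cells with a transcript and more transcript per cell cannot be told apart. Thus H2-D1 missed the 2-fold threshold on the probe set taken for the gene and passed it on 5 of 7. Probe sets for H2 heavy chains can share targets, since 11 of the 13 for H2-K1 and H2-D1 carry an ID suffix by which the array maker marks sequence shared between transcripts. How much of each signal came from the other heavy chain was not tested.

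Brighter heavy chain probe sets showed smaller differences. Over the 11 probe sets of both genes above the background on all arrays, Spearman's rho between mean level and difference was -0.70 for day 28 against day 6. These points share arrays and targets, so the value is a description. Of the 11, 9 were 2-fold higher, and the 2 that were not were the brightest. All genes described were also grouped by their value on the brighter of both arrays, not by mean level. At 29 or more, 5.03% were 2-fold higher at day 28 than day 6, against 8.15% below 25. The part of brightness in the heavy chain differences was not tested.

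**Figure D2:**
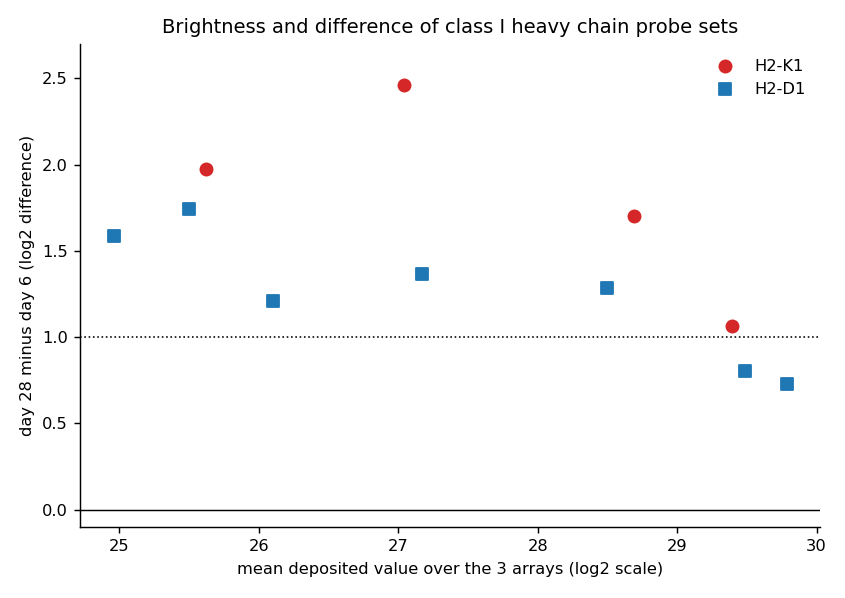
Log2 difference of day 28 minus day 6 against the mean deposited value over the 3 arrays, for 4 probe sets of H2-K1 (circles) and 7 of H2-D1 (squares); the dotted line marks 2-fold. The brightest probe set of H2-D1 has the smallest difference, 0.73, and a probe set of H2-K1 of middle brightness the largest, 2.46.

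B2m, the light chain shared by all class I molecules, gave 30.35 at day 6, 30.48 at day 14 and 30.59 at day 28 on its brighter probe set. That probe set ranked 10 of all 45101 at day 6, 3 at day 14 and 1 at day 28. It differed by 0.24 for day 28 against day 6, and at rank 1 it held the highest value that the shared distribution allows. The other probe set differed by 0.19.

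H2-M3, a class Ib heavy chain known for presenting peptides that start with formylmethionine, was the member gene with the largest difference among those above the background on both arrays. It gave 22.91 at day 6, 24.76 at day 14 and 26.70 at day 28. The day 28 value was 13.8-fold that of day 6, and its day 6 value lay just above the background of 22.84. Both steps were of like size, with log2 differences of 1.85 for the first step and 1.94 for the second. Only 1 probe set measured it.

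The promoters of H2-K1, H2-D1, H2-M3 and B2m are shown because they share a sequence layout that the choice of genes did not use. Class I promoters are known to hold an X box, which contains a CREB-like site, and a Y box, an inverted CCAAT. In the stretches below, read in the direction of the gene from RefSeq promoter windows of build GRCm38.p6, capitals mark TGACG and ATTGG, the reverse complement of CCAAT.
H2-K1: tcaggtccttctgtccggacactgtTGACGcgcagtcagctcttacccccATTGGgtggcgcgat
H2-D1: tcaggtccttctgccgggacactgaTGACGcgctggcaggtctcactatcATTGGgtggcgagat
H2-M3: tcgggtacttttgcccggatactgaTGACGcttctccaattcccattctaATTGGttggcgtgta
B2m: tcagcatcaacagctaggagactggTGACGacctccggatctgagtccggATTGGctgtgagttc
They lie on chromosome 17 at chr17:34000349-34000413, minus strand, for H2-K1, at chr17:35262968-35263032, plus strand, for H2-D1 and at chr17:37270163-37270227, plus strand, for H2-M3. The stretch of B2m lies on chromosome 2 at chr2:122147584-122147648, plus strand. In all 4 the first base of ATTGG follows the first base of TGACG by 25 bases. H2-K1 has a second window in the table, in which the same pair occurs.

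This spacing was not set in advance, as it was the most frequent distance of TGACG and CCAAT in the member windows themselves. Its frequency among members thus follows in part from that choice and is no evidence of enrichment. The pair at that distance and orientation occurred in 19 of 32851 promoter windows of 300 bases, or 0.058%. Of the 19, 5 belonged to these 4 genes, with both overlapping windows of H2-K1 counted. No other member gene among the 27 with a window had it at that distance, but the class II gene H2-Aa had the pair in the same order and orientation at 26 bases. TGACG on either strand occurred somewhere in the windows of 10 of the 27 genes and in 20.8% of all windows, and CCAAT on either strand in 21 of 27 genes and 37.4% of all windows. A match is a description of letters and shows neither binding nor a cause.

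Other class Ib genes with a probe set of their own mostly lay near or below the background. H2-Q5, listed by RefSeq as a transcribed pseudogene, like H2-Bl, H2-Ea and H2-D4, gave 20.36 at day 6, 21.82 at day 14 and 24.20 at day 28, so it lay above the background at day 28 only and was at least 2.57-fold higher than at day 6. H2-M9 (23.18 at day 28, 21.66 at day 6) and H2-Bl (22.92 at day 28, 21.71 at day 6) were counted as 2-fold higher as measured. Against the background at day 6 their bounds were only 1.27-fold for H2-M9 and 1.06-fold for H2-Bl. H2-T3 differed by 0.35 and H2-T18 by -0.22. H2-M10.1, H2-Q2, H2-Q10 and H2-T24 lay below the background on all arrays, as did H2-D4, and carry no readable difference.

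Another 16 probe sets were annotated to more than 1 gene, including an H2 gene or a listed gene, and are outside the 77. They name no single gene. Of the 10 above the background on at least 1 of both arrays, 8 were 2-fold higher at day 28 than at day 6 and 0 lower, with a median of 2.39, while 5.90% of probe sets with 1 gene were higher and 4.97% lower. Several of the 8 were annotated to the same genes and are not separate measurements of different ones. Probe set 1418536_at, annotated to the class Ib genes H2-Q7 and H2-Q9 together, gave 23.36 at day 6, 24.74 at day 14 and 27.03 at day 28. The class Ib genes H2-T9, H2-T10 and H2-T22 shared probe set 1449875_s_at, which gave 27.45, 27.90 and 28.54 in order of time. Probe set 1418638_at, annotated to H2-DMb1 and H2-DMb2 together and so assigned to neither, gave 21.51 at day 6, below the background, 23.70 at day 14 and 25.24 at day 28. Another probe set, annotated to a pair of proteasome activator genes and numbered 1417189_at, differed by -0.27.

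Both subunits of the peptide pump were higher at later times. Tap1 gave 24.71 at day 6, 26.35 at day 14 and 27.26 at day 28, which is 5.84-fold above day 6. The 3 other probe sets of Tap1 lay below the background on all arrays. Tap2 lay below the background at day 6 (22.35) and gave 24.56 at day 14 and 25.31 at day 28, at least 5.55-fold higher at day 28 than at day 6. For both genes the first step was the larger one, with 1.64 and 0.91 for Tap1 and at least 1.72 and then 0.75 for Tap2, in order of time.

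Loading factors differed little beside the pump. Tapbp, which bridges the pump and the class I molecule, gave 28.07 at day 6, 28.91 at day 14 and 28.77 at day 28. Its differences for day 28 against day 6 were 0.70 and 0.31 on 2 probe sets. The chaperone genes Calr and Pdia3 differed by 0.37 and 0.28, and Canx, which binds the newly made heavy chain, by -0.12. Tapbpl, a peptide editor related to Tapbp, differed by -0.07. Erap1, the peptidase that trims peptides in the endoplasmic reticulum, was lower by less than 2-fold, with 24.94 at day 28 and 25.67 at day 6, and the difference on its second probe set was -0.44. A list of 11 other genes of protein folding and trimming in this compartment had 0 genes 2-fold higher or lower and a median of 0.12.

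Among the immunoproteasome genes, Psmb9 stood out from the others measured. Psmb9 lay just below the background at day 6 (22.59) and gave 24.25 at day 14 and 26.53 at day 28, at least 12.9-fold higher at day 28. Psmb10 gave 26.17 at day 6, 26.15 at day 14 and 25.72 at day 28, giving a difference of -0.45. Psme1, a subunit of the proteasome activator, differed by 0.17. Psmb8 differed by -0.23 on its brighter probe set, 1444619_x_at, which gave 23.57 at day 28 and 23.80 at day 6. The other probe set of Psmb8, 1422962_a_at, gave 10.34 at day 6 and 21.4 at both later times, all below the background, so the gene has no second readable measurement. In the constitutive proteasome, which holds Psmb5, Psmb6 and Psmb7 at the positions of the exchanged subunits, the differences were -0.32, -0.26 and -0.73. Psme3, a subunit of another activator, was 2.38-fold lower at day 28.

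Psmb9, Tap1, Psmb8 and Tap2 follow each other on chromosome 17 in this order. Differences for day 28 against day 6 were at least 3.69 for Psmb9, 2.55 for Tap1, -0.23 for Psmb8 and at least 2.47 for Tap2. The outer neighbours were H2-DMb1, which had no probe set of its own, and H2-Ob, which lay below the background. Psmb8 was thus the one gene of the 4 that was not 2-fold higher, on a probe set with a suffix for shared sequence.

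**Figure D3:**
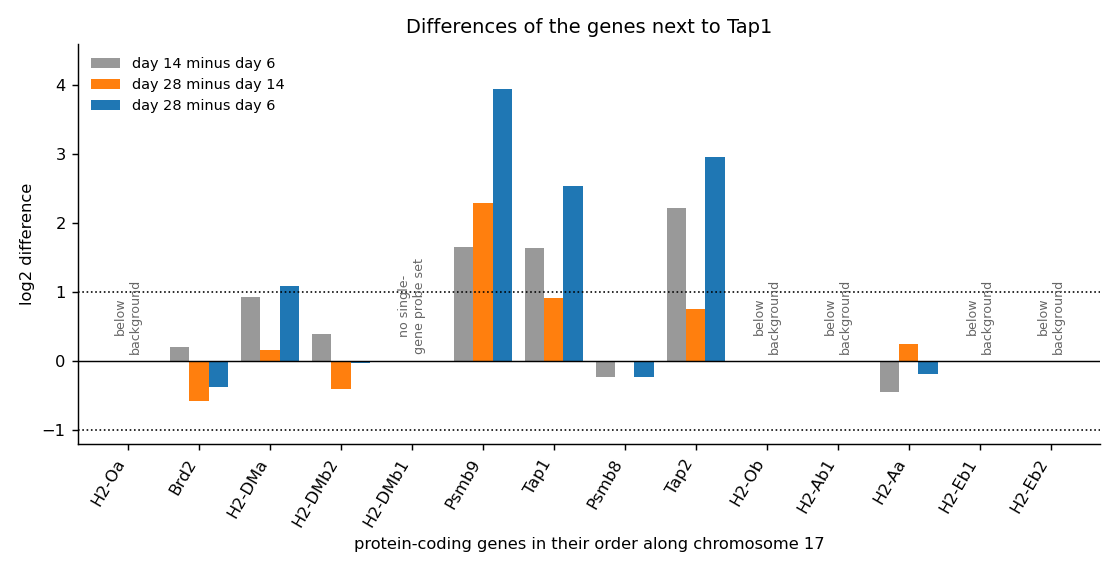
Log2 differences of 14 protein-coding genes in their order along chromosome 17, with a grey bar for day 14 minus day 6, an orange bar for day 28 minus day 14 and a blue bar for day 28 minus day 6; dotted lines mark 2-fold. Bars show values as measured, also where day 6 lay below the background (H2-DMa, Psmb9 and Tap2). Psmb9, Tap1 and Tap2 have bars above 2 for day 28 minus day 6, and Psmb8 between Tap1 and Tap2 has one of -0.23.

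Psmb9 and Tap1 are transcribed away from each other, and their RefSeq starts lie 226 bases apart, so their promoter windows share 275 of 300 bases. The window of Tap1 is shown because it holds the stretch common to Tap1 and Psmb9. It lies at chr17:34187306-34187605 of GRCm38.p6, on the plus strand, and runs from 250 bases before the start of Tap1 to 50 bases after it.
Tap1: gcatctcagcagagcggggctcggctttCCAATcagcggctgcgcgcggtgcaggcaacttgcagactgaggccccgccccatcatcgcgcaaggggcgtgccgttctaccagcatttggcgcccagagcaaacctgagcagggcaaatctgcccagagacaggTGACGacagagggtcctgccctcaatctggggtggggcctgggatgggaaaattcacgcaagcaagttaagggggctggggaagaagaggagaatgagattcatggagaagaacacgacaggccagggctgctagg
Capitals mark TGACG, which begins at position -86 relative to the start of Tap1, and CCAAT, which begins at -222. In the direction of Tap1 the pair thus has neither the order nor the distance seen in the heavy chains. In the direction of Psmb9, TGACG lies on the other strand at -144 and ATTGG begins at -8. There the order is that of the heavy chains, but the strand of TGACG and the distance differ. An outline of the interferon-stimulated response element, GAAANNGAA on either strand, was found in 3 of the 27 genes with a window (B2m, Erap1 and Psme1) and in 8.56% of all windows. An outline of the interferon-gamma activated sequence, TTCNNNGAA, which can overlap the first one, was found in H2-DMb2, Psmb8 and H2-M3 and in 8.30% of all windows. An NF-kappaB outline, GGG and CC parted by 5 bases, was in 16 of 27 genes and in 50.8% of all windows, including that of Tap1. Elements that depart from these outlines were not sought, so a gene without a match may still hold one.

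Of the regulators, Nlrc5 lay above the background on all arrays, and Ciita on none. Nlrc5 gave 26.01 at day 6, 26.42 at day 14 and 26.89 at day 28, higher at each later time but 1.84-fold and so below 2-fold for day 28 against day 6. Ciita, the activator of class II genes, stayed between 21.61 and 21.87 on its brightest probe set. The DNA-binding partners shared by both activators (Rfx5, Rfxap, Rfxank, Nfya, Nfyb, Nfyc and Creb1) were all above the background. Of these 7 genes 0 were 2-fold higher or lower, with 0.64 for Rfx5 and -0.72 for Nfyb at the ends of the range.

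Class II genes themselves were largely unreadable. Of 10 class II genes, 6 lay below the background on all arrays, namely H2-Ab1, H2-Ea, H2-Eb1, H2-Eb2, H2-Oa and H2-Ob. H2-Aa, the alpha chain of a class II molecule, lay above it on 1 of 4 probe sets, with 23.31 at day 6, 22.87 at day 14 and 23.12 at day 28. H2-DMb2, part of the class II peptide exchanger, differed by -0.02, with 23.20 at day 28 and 23.22 at day 6. The pair of probe sets annotated to H2-DMb1 and H2-DMb2 together showed another picture. They gave 25.24 and 25.16 at day 28, against 21.51 and 21.68, both below the background, at day 6. H2-DMa, its partner chain, gave 22.93 at day 28 and 21.84 at day 6, and its bound of 1.06-fold lies far under the measured 2-fold. Cd74, the invariant chain that escorts class II molecules and is also a surface receptor for the cytokine MIF, was the gene of this group that lay above the background on all arrays and was 2-fold higher. It gave 23.66 at day 6, 24.10 at day 14 and 24.81 at day 28, 2.22-fold higher at day 28 than at day 6. Of 6 lysosomal enzyme genes of this pathway above the background, Lgmn alone was 2-fold higher, at 2.04-fold, against 6.60% of all genes. Ctss, the protease that degrades the invariant chain, lay below the background.

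H2-Ke6 carries the prefix because it lies in the MHC and is not an antigen presentation gene. It encodes a steroid dehydrogenase and gave 23.65 at day 6, 23.90 at day 14 and 24.39 at day 28.

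**Figure D4:**
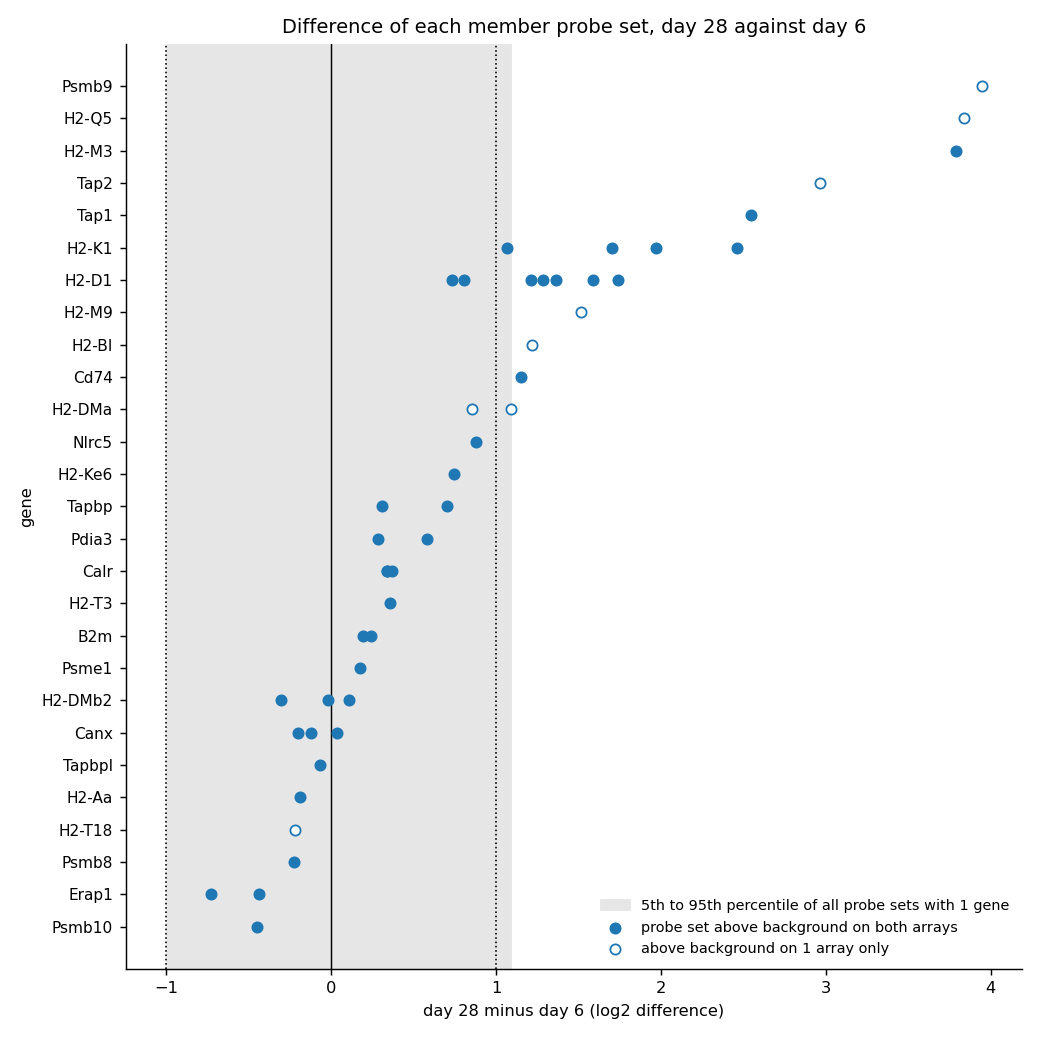
Log2 difference of day 28 minus day 6 for every member probe set above the background on at least 1 of both arrays, by gene, with open circles where only 1 array was above it; the grey band spans the 5th to 95th percentile of all probe sets with 1 gene (-0.999 to 1.09) and dotted lines mark 2-fold. Psmb9, H2-Q5, H2-M3, Tap2 and Tap1 lie farthest right, and every probe set of H2-K1 lies above 1.

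Between days 14 and 6, 25 member genes were described and 5 were 2-fold higher at day 14, against 5.50% of all genes. None was 2-fold lower (0 genes, against 3.89%). The 5 were Tap2, at least 3.30-fold higher, H2-M3 at 3.60-fold, Tap1 at 3.11-fold, Psmb9 at least 2.65-fold, and H2-M9, for which no bound above 1 can be given. The median of the 25 genes was 0.39, against -0.03 for all genes described, and that of the 20 genes above the background on both arrays was 0.25. By probe set 10 of 44 were higher, among them 3 of the 4 for H2-K1, against 5.42% of all, and 0 were lower, against 4.22%.

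Between days 28 and 14, 4 of 26 member genes were 2-fold higher at day 28 and 0 lower, against 2.21% and 1.46% of all genes described. They were Psmb9 at 4.88-fold, H2-M3 at 3.84-fold, H2-Q5 at least 2.90-fold and H2-Bl, with a bound of 1.20-fold. The median was 0.26, against 0.04 for all genes. By probe set 5 of 46 were higher and 0 lower, against 1.78% and 2.20% of all. The comparisons share arrays, so an error of the day 14 array would enter this step and the first with opposite signs.

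Over the whole course, 15 of the 27 member genes above the background on any array were higher at day 14 than at day 6 and higher again at day 28, against 21.1% of all 11852 such genes. Values were successively lower for Erap1, Psmb10 and Psmb8 on the probe set taken for the gene, against 18.4% of all such genes. The second probe set of Erap1 was higher at day 14 (25.31) than at day 6 (24.76), and the second step of Psmb8 was only -0.0033. Both steps passed 2-fold for Psmb9 and H2-M3. H2-Q5 lay below the background at days 6 and 14, so its first step cannot be read.

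Genes of interferon signalling are described beside these. Jak2, a kinase of the interferon-gamma receptor, was higher by 1.58 on the log2 scale, with 27.73 at day 28 and 26.15 at day 6. It was the 1 gene of 15 described that passed 2-fold in this list, near the 6.60% of all genes, and the list's median was 0.49. The receptor genes Ifngr1 and Ifnar2 differed by 0.65 and 0.73 and the factor gene Irf1, which activates class I and Psmb9, by 0.49. Ifng and Ifnb1, which encode interferons, lay below the background on every array. Of 32 interferon-stimulated genes described, 4 were 2-fold higher at day 28 and 0 lower, against 6.60% and 4.00% of all genes, with a median of 0.30. The 4 were Ifi27l2a at 5.61-fold, the GTPase gene Iigp1 at 3.67-fold, the RNA sensor gene Oas2 at 2.79-fold and Ifit3 at 2.26-fold. All 32 lay above the background at day 6 already, from 24.82 for Isg20 to 29.51 for Rsad2. The median of all probe sets on that array was 22.91. The part of these levels in the differences was not tested. Of 8 genes of NF-kappaB signalling, 0 were 2-fold higher or lower, and the median was 0.10. A difference between these lists and the antigen presentation genes was not tested.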

How the data were processed

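Total RNA, 100 ng per sample, had been labelled with biotin per the labels' protocols and hybridized to 1 array per time point. The deposited table held 1 log2 value per probe set. The sources used here give neither the authors' way to summarize probes nor the log base. All 3 columns were identical once sorted, as quantile normalization leaves them.

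The platform annotation gave 1 gene for 34958 probe sets, several for 932 and none for 9211. The probe set with the highest mean stood for a gene. Where the dimmer array lay below the background, a fold is a bound against it. No tests were run. Arrays limit the precision by their number. Counting steps were tested on simulated data. The members, lists and alternatives were chosen with earlier results of these data known. All member genes, and of other lists those with the largest differences or a stated role, are named. Promoter sequences come from RefSeq (GRCm38.p6). Python 3.11.15, numpy 2.4.6, pandas 2.3.3, scipy 1.17.1 and matplotlib 3.10.9 were used.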

Additional observations from a re-analysis of the deposited data

How the results depend on the processing

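The count of 10 member genes 2-fold higher at day 28 than at day 6 was 4 when both arrays had to lie above the background, against 4.84% of all genes. Under the other alternatives it ran from 7 with dim values raised to the background to 14 at 1.5-fold. The shares of all genes higher were 5.44% and 15.8% in these 2 settings, against 6.60% in the main one. The median of 0.70 over 27 genes was 0.36 over 30 genes with the 75th percentile background and 0.28 without a filter. It was 0.32 with both arrays above the background and 0.34 with dim values raised to the background. The size of the median thus depended on the setting. The 5 genes higher at day 14 than at day 6 became 8 without a filter, 2 with both arrays above the background and 9 at 1.5-fold. The shares of all genes were 6.26%, 4.37% and 13.5% in these settings, against 5.50% in the main one. The 4 higher at day 28 than at day 14 became 2 with both arrays above the background and 7 at 1.5-fold. Of all genes, 1.48% and 7.61% were higher there, against 2.21% in the main setting. Genes 2-fold lower, 0 in each comparison, without a filter became 2 for day 28 against day 14 and 1 for the whole span of days 28 and 6. The shares of all genes there were 3.22% and 5.17%. At 1.5-fold 1 was lower in each of these comparisons, against 4.38% and 12.2% of all genes. H2-M9 reversed to -0.0218 for day 14 against day 6 with dim values raised to the background. Averaging probe sets moved H2-K1 to 1.80 and H2-D1 to 1.24 for day 28 against day 6. A shift to equal hybridization controls left 9 genes (day 28) and 5 genes (day 14) higher than at day 6, against 5.80% and 4.73% of all genes. Over all genes for day 14 against day 6, this shift gave 552 higher and 618 lower, in place of 642 and 454. No paired analysis was possible because each group holds 1 array.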

Other observations

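A list of class I-like genes outside the H2 family and of other surface molecules, such as Cd274, Cd80 and Cd86, was also read. None of its genes was among the chosen genes. Fcgrt, the heavy chain of the neonatal Fc receptor, gave 26.56 at day 6, 27.67 at day 14 and 27.66 at day 28, which is 2.14-fold above day 6. Hfe, a regulator of iron uptake with a class I fold, exceeded its day 6 level 2.60-fold at day 14 and 1.92-fold at day 28. Mr1, which presents vitamin metabolites to T cells, lay above the background at day 28 only (23.54) and was at least 1.63-fold higher than at day 6. Cd1d1, which presents lipids, differed by -0.10. Cd274, the ligand of an inhibitory T cell receptor, differed by 0.62. With 12 genes of this list on the array and 7 described for day 28 against day 6, 2 were 2-fold higher and 0 lower, against 6.60% and 4.00% of all genes.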
